A study of Mus musculus with 38 samples.

Results

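The integrated stress response is a pathway in which kinases phosphorylate the initiation factor eIF2, general translation falls, and a small set of mRNAs with upstream open reading frames (uORFs) in their 5′ UTRs is translated more. In the textbook account of Atf4, ribosomes that have translated a short uORF re-initiate at a later uORF that overlaps the main coding sequence (CDS) while active eIF2 is plentiful, and reach the main start codon when it is scarce. In neurons the pathway is known for its part in synaptic plasticity and memory. The 7 genes Atf4, Atf5, Ddit3, Ppp1r15a, Ppp1r15b, Ifrd1 and Slc35a4 were listed for their known regulatory uORFs, by a rule that uses no measured value but with earlier results of these data known, and were 7 of 22443 genes with a CDS, of which 20891 also had a 5′ UTR. Atf4, Atf5 and Ddit3 (the protein CHOP) encode bZIP transcription factors of the pathway. Ppp1r15a (GADD34) and Ppp1r15b (CReP) encode the stress-induced and the constitutive subunit that bring protein phosphatase 1 to phosphorylated eIF2, and so end the response. Ifrd1 encodes a transcriptional co-regulator, and Slc35a4 encodes a membrane protein of the nucleotide-sugar transporter family whose mRNA also carries a translated uORF.

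PL-Ribo-seq (proximity labelling joined to ribosome profiling) gave footprints, the pieces of mRNA that ribosomes shield from nuclease, of cortical neurons from CD-1 mouse embryos after 12 days in culture, in 38 libraries of 14 groups. The neurons carried a lentiviral, doxycycline-induced biotin ligase, either TurboID-PSD95, which elements of the PSD95 transcript bring to dendrites, or Pan-TurboID, the ligase without such a signal. Every sample combined 4 dishes. It gave an input library, from monosomes of the whole culture, and a pulldown library, from ribosomes recovered on streptavidin after 2 min of cycloheximide and biotin, for 30 min per the labels, although the study's methods give a shorter time for DHPG. Samples of one replicate were handled together according to those methods, and input and pulldown came from the same sample. Same-numbered libraries of an experiment were therefore also fitted with the replicate as a block. Where no block is named, values are from the fit without it, and the block's values are given beside them where it changed a call. In the KCl experiment, resting neurons were compared with neurons silenced for 2 h with TTX and DL-AP5, depolarized with 55 mM KCl for 1 h and left to recover for 30 min, for both ligases, with 3 replicates of each input and pulldown. Neurons of the DHPG experiment carried TurboID-PSD95 and were silenced for 2 h, received 100 µM of DHPG for 10 min, which activates group I metabotropic glutamate receptors, and gave 3 inputs and 3 pulldowns. The knockdown experiment used TurboID-PSD95 neurons, resting or depolarized as above, after 72 h with 20 nM siRNA against eIF4G2, an eIF4G relative that lacks the cap-binding eIF4E site, with 2 replicates of each input and pulldown. The comparators of the DHPG and knockdown groups came from the KCl experiment, so treatment and experiment cannot be told apart there. The labels give resting neurons no silencing and no recovery step. Silencing, KCl and recovery therefore cannot be told apart, and depolarization or KCl below stands for all of them together. No RNA level was analysed here, so a change in footprints can come from the amount of mRNA, its translation or both. A ribosome pool of cultured cells also cannot separate fewer cells of a type from less RNA per cell.

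The 5′ UTRs of the 7 genes held between 1 and 18 upstream ATG codons. Lengths, splicing and coordinates below are those of the longest transcript on the mouse build mm10, and sequences were read from the RefSeq copy of that build (GRCm38). Atf4 (chr15:80255184-80257460, + strand) had a 594-nt 5′ UTR and a 1050-nt CDS, each in 2 exon segments. Its 3 upstream ATGs opened reading frames of 36 codons, 3 codons and 59 codons, and the last of them ran 83 nt past the main ATG. Atf5 (chr7:44812847-44816658, − strand) had a 373-nt 5′ UTR with the same layout on a smaller scale, a 3-codon uORF and then a 58-codon uORF that ran 56 nt past the main ATG. The start sites of both genes are shown because the layout of a short and then an overlapping uORF is shared between them. Capitals mark the start codon, or the whole uORF where it has 3 codons and a stop.
Atf4 upstream ATG 2, chr15:80255573-80255602: gcggccaccATGGCGTATTAGaggcagcag
Atf4 upstream ATG 3, overlapping uORF, within chr15:80255672-80256213 across an intron: gcctaagccATGgcgctcttc
Atf4 main ATG, chr15:80256290-80256310: ccccacaacATGaccgagatg
Atf5 upstream ATG 1, chr7:44816517-44816546: gcccgcgcaATGGCTCTGTAGccgcgaccc
Atf5 upstream ATG 2, overlapping uORF, within chr7:44815276-44816415 across an intron: ttcgccgccATGgagtcctcc
Atf5 main ATG, chr7:44815155-44815175: gtcacagccATGtcactcctg
All 4 of these upstream ATGs had A or G at position −3 and G at position +4, counted from the A of the ATG as +1, the letters of a strong initiation context.

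The other genes had other layouts. Ddit3 (chr10:127290774-127296091, + strand) had a 186-nt 5′ UTR in 3 segments and a 507-nt CDS. Its uORF of 34 codons ended 26 nt before the main ATG and is annotated as a CDS of its own. Ppp1r15a (chr7:45522993-45526146, − strand) had a 764-nt 5′ UTR with 7 upstream ATGs, the last of which opened a 50-codon frame that ran 76 nt past the main ATG. Ppp1r15b (chr1:133131143-133136887, + strand) had a 604-nt 5′ UTR with 3 upstream ATGs, and the 51-codon frame of the last ended 74 nt before the main ATG. Ifrd1 (chr12:40203362-40223189, − strand) had a 233-nt 5′ UTR and 1 upstream ATG, whose 52-codon frame ended 43 nt before the main ATG. The start site of the last uORF that does not lie inside another is shown for these 4 genes, with the start codon in capitals. Ddit3 has another upstream ATG, which lies inside this uORF and opens 31 codons to the same stop.
Ddit3 upstream ATG 1, chr10:127290820-127290840: gattatatcATGttgaagatg
Ppp1r15a upstream ATG 7, chr7:45525448-45525468: tttgttaccATGactcagtgc
Ppp1r15b upstream ATG 3, chr1:133131508-133131528: ctagccgggATGgacctaacc
Ifrd1 upstream ATG, chr12:40223147-40223167: gagagaaacATGtatcgtttc
All 4 had A or G at −3, and of them only the Ppp1r15b site had G at +4.

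Slc35a4 had the longest 5′ UTR of the 7, 1099 nt, with 18 upstream ATGs, of which the one that opens a 103-codon frame is annotated as a CDS of its own. Among 20849 genes with a 5′ UTR sequence, 55.2% held an upstream ATG and 18.31% one that runs past the main ATG, as do Atf4, Atf5 and Ppp1r15a. An ATG in the sequence is a description and does not show that a ribosome starts there.

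**Figure D1:**
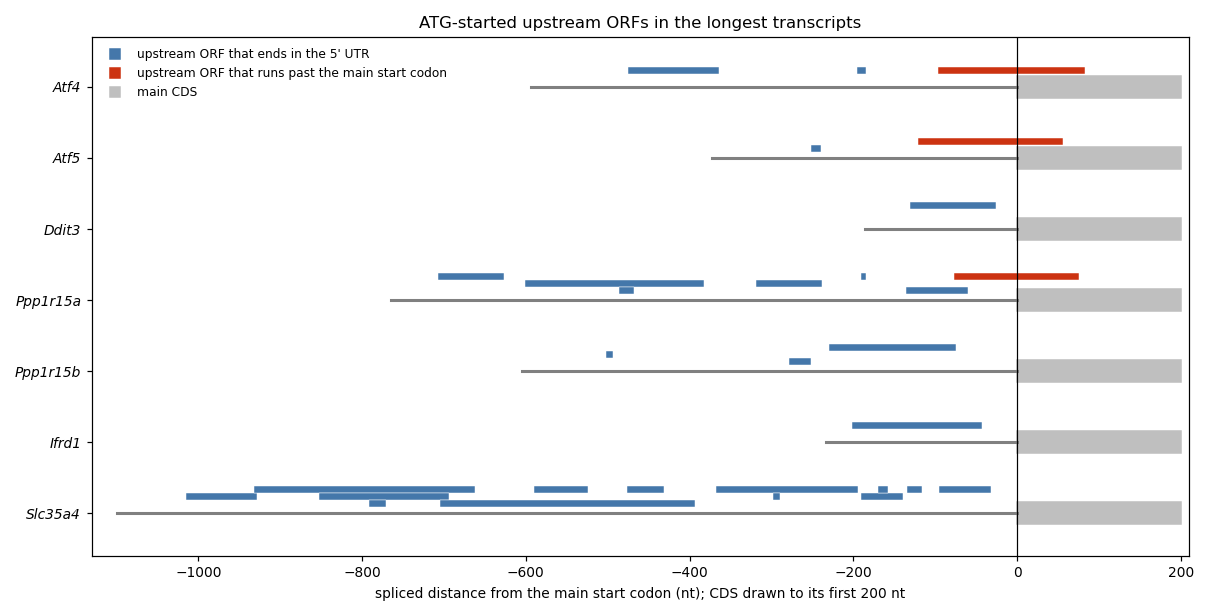
Upstream reading frames of the 7 genes in the longest transcript. The x axis gives the distance in nt from the main ATG, each bar is a frame from an upstream ATG to its stop codon, and red bars run past the main ATG: 1 each in Atf4, Atf5 and Ppp1r15a.

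Total counts ran from 5906281 to 35643247 per library and CDS counts of the longest transcripts from 2047169 to 14636018. Over all genes, the 5′ UTR share of 5′ UTR and CDS counts was 15.48% to 27.56% in the 19 inputs (median 20.59%) and 4.699% to 18.73% in the 19 pulldowns (median 6.541%). Replicate 2 of the depolarized TurboID-PSD95 pulldowns stood apart, with 18.73% (95% Wilson interval 18.71 to 18.76, counting error only), against 5.312% and 10.2% in the other replicates of its group. Results that rest on it are therefore also given without it. All 5 neuronal and all 5 astrocyte markers were counted. The astrocyte markers summed to between 80.8 and 85.4 CPM (counts scaled to the same total of CDS counts in each library) in DHPG inputs and to between 287 and 726 CPM in their resting comparators. Eif4g2, the knockdown target, was at 283.7 and 284.0 CPM in resting knockdown inputs and between 562 and 582 CPM in resting TurboID-PSD95 inputs without knockdown (log2 fold change −0.98, SE 0.19, edgeR FDR 0.00376).

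Footprints on these mRNAs lay mostly upstream of the CDS in the inputs. In inputs, the 5′ UTR share of a gene's summed counts was 79.2% for Atf5, 72.2% for Slc35a4, 72.0% for Atf4, 65.8% for both Ppp1r15a and Ppp1r15b, 62.9% for Ddit3 and 61.8% for Ifrd1. The median gene of 12997 was at 19.7%, and between 1.75% and 6.44% of genes had a higher share than each of the 7. In all pulldowns summed, Atf5 (69.3%), Atf4 (62.2%) and Ddit3 (57.1%) kept most of their counts in the 5′ UTR, while Ppp1r15a was at 49.4%, Slc35a4 at 46.9%, Ifrd1 at 40.6% and Ppp1r15b at 23.3%, against a median gene at 8.46%. Without the library that stood apart, these pulldown shares were 68.9%, 63.0%, 55.0%, 46.4%, 43.7%, 36.9% and 20.2%. In the pulldowns of the KCl experiment alone, the share of Ppp1r15b was 36.7%, and DHPG pulldowns with many CDS counts and a low share weigh on its sum.

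Long 5′ UTRs hold more counts than short ones, and all 7 were longer than the median 5′ UTR of all genes, 175 nt, with Ddit3 nearest to it at 186 nt. Per nt, the 5′ UTR carried 9.37 times as many input counts as the CDS in Ifrd1, 8.69 times in Atf5, 6.66 times in Ppp1r15b, 4.97 times in Ppp1r15a, 4.62 times in Ddit3, 4.55 times in Atf4 and 2.30 times in Slc35a4, against 1.85 times for the median gene. For Slc35a4, 41.1% of genes had a higher density ratio, while 3.66% did for Ifrd1 and 4.35% for Atf5. The order depended on the experiments summed, and inputs of the KCl experiment alone gave 11.7 for Ifrd1, 8.92 for Ppp1r15b and 8.57 for Atf5. In pulldowns the ratio was 0.729 for the median gene and 5.16 for Atf5, 3.96 for Ifrd1, 3.63 for Ddit3, 2.90 for Atf4, 2.53 for Ppp1r15a, 1.05 for Ppp1r15b and 0.782 for Slc35a4. For Ppp1r15b the median library was at 0.837 over all pulldowns and at 1.44 in those of the KCl experiment. Footprints of ribosomes on the first codons of a CDS count as 5′ UTR here, since 5′ ends were counted without an offset.

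Library by library, the 5′ UTR count of Atf4, Atf5, Ddit3 and Slc35a4 was above the CDS count in 19 of 19 inputs. The same held in 16 inputs for Ppp1r15b, 15 for Ppp1r15a and 13 for Ifrd1. In pulldowns the number fell to 17 of 19 for Atf5, 15 for Atf4 and Ddit3, 8 for Slc35a4, 6 for Ppp1r15a, 3 for Ifrd1 and 2 for Ppp1r15b. The input share of Atf4 ran from 62.5% to 83.0% (median 73.2%) and that of Ppp1r15b from 38.6% to 81.6% (median 68.0%), so the phosphatase subunit varied more between libraries than the transcription factor. In replicate 1 of the depolarized Pan-TurboID inputs, Slc35a4 had 15 counts in the 5′ UTR and none in the CDS, a share of 100% (95% Wilson interval 79.6 to 100), and its CDS level there was under the 1.42 CPM that 3 counts are worth.

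**Figure D2:**
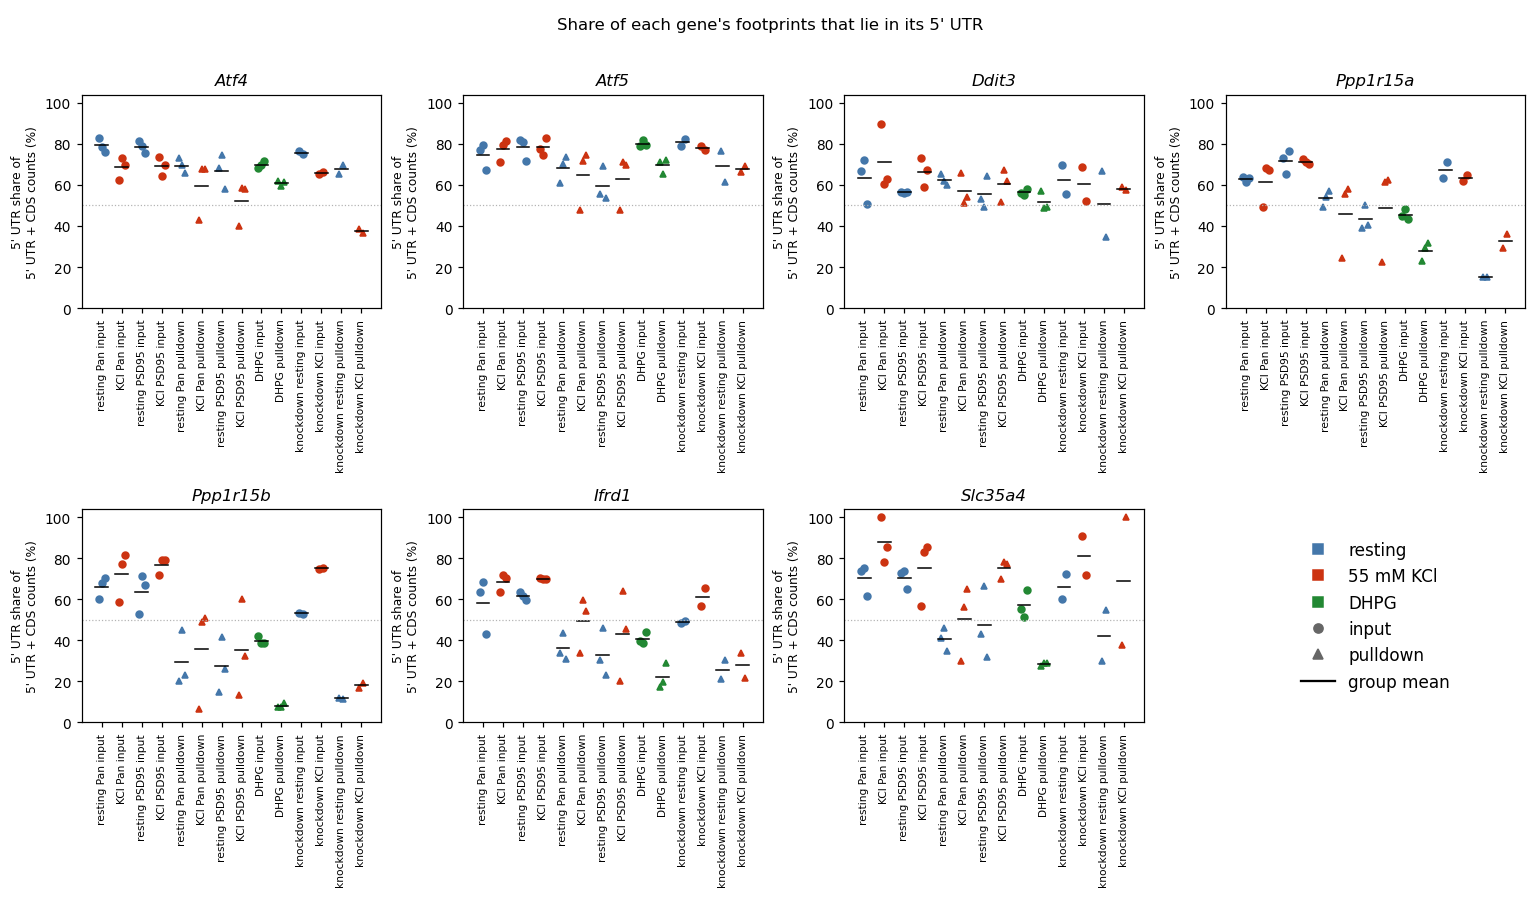
The 5′ UTR share (%) of each gene's 5′ UTR and CDS counts in the 14 groups. Points are libraries, the short lines are group means, and the dotted line marks 50%. Atf4, Atf5, Ddit3 and Slc35a4 lie above the line in all 19 inputs, and Ppp1r15b lies below it in all but 2 of the 19 pulldowns.

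Depolarization raised the CDS footprints of the 3 transcription factor genes and of Ppp1r15a in the inputs, and the other 3 genes did not pass the test. In the inputs, Ppp1r15a rose by 2.04 on the log2 scale (SE 0.24, edgeR FDR 1.05e-06), Atf4 by 1.68 (SE 0.25, FDR 3.11e-05), Ddit3 by 1.21 (SE 0.33, FDR 0.0145) and Atf5 by 0.80 (SE 0.22, FDR 0.0113). Thus 4 of the 7 passed, all of them higher, beside 15.4% of all 13003 genes tested, in either direction. The median log2 fold change was 0.80 over the 7 genes and −0.01 over all genes. The 5 neuronal markers summed to between 6752 and 7415 CPM in resting and between 4915 and 6419 CPM in depolarized TurboID-PSD95 inputs, which did not overlap, while over the inputs of both ligases the ranges were 6752 to 7443 and 4915 to 9178 CPM, which did. Oligodendrocyte markers had medians of 11.9 CPM at rest and 4.69 CPM after KCl, with ranges of 4.94 to 15.9 and 2.39 to 14.9 CPM. The part of these markers in the KCl results was not tested.

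Atf4 had 39.3, 85.8 and 80.9 CPM in resting TurboID-PSD95 inputs and 192, 313 and 207 CPM in depolarized ones. In Pan-TurboID inputs it had 46.8, 88.1 and 79.2 CPM at rest and 212, 173 and 229 CPM after KCl. Every depolarized input lay above every resting input, and replicate 1 was the lowest of the resting inputs with both ligases. Over all 38 libraries, the 16 depolarized ones were between 121 and 313 CPM and the other 22 between 25.9 and 88.3 CPM, with no overlap. How many of all genes separate in this way is not given here. In the order of the 14 groups, the 6 depolarized groups came first, from 237 CPM (SD 65.7, n = 3) in TurboID-PSD95 inputs to 139 CPM (SD 14.95, n = 3) in Pan-TurboID pulldowns, and the highest of the others was the DHPG input with 83.1 CPM (SD 4.70, n = 3). Of the 13 pairs of neighbours in that order, 10 overlapped.

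Ppp1r15a had the same separation. It had 8.83, 21.2 and 15.9 CPM in resting TurboID-PSD95 inputs and 52.9, 59.1 and 62.5 CPM in depolarized ones, and 11.8, 20.3 and 17.6 CPM against 85.5, 49.5 and 71.9 CPM in Pan-TurboID inputs. Over all libraries the 16 depolarized ones held 36.6 to 85.5 CPM and the other 22 held 5.98 to 24.0 CPM. Among the 13 neighbouring pairs of groups, 4 did not overlap, among them the step from depolarized knockdown inputs (42.0 CPM) to DHPG inputs (22.7 CPM).

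Atf5 had 12.2, 22.0 and 23.9 CPM in resting TurboID-PSD95 inputs and 38.4, 51.2 and 29.3 CPM in depolarized ones, with no overlap. With Pan-TurboID it had 18.3, 22.0 and 30.4 CPM at rest and 28.5, 34.4 and 37.0 CPM after KCl, which overlapped. Ddit3 had 9.30, 19.1 and 15.9 CPM at rest against 32.8, 42.3 and 34.4 CPM after KCl with TurboID-PSD95. With Pan-TurboID it had 8.47, 14.3 and 15.1 CPM against 8.07, 27.4 and 41.5 CPM, so replicate 1 of the depolarized Pan-TurboID inputs, with 17 counts, was as low as the resting ones. The calls of both genes were lost in some fits with fewer replicates. Without replicate 1 or 2 of all groups, Atf5 was at 0.60 (FDR 0.0864) and 0.79 (FDR 0.116), and without replicate 2 or 3 Ddit3 was at 1.38 (FDR 0.0700) and 1.10 (FDR 0.184).

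Ppp1r15b, the constitutive phosphatase subunit, had 37.3, 31.1 and 33.5 CPM in resting TurboID-PSD95 inputs and 57.6, 41.3 and 35.8 CPM in depolarized ones, and its log2 fold change over all inputs was 0.44 (SE 0.24, FDR 0.226). Ifrd1 had 34.1 to 51.9 CPM in the 6 resting inputs and 46.2 to 75.7 CPM in the 6 depolarized ones (0.43, SE 0.18, FDR 0.104). Slc35a4 was the least covered, with 2.78 to 5.46 CPM at rest and 0 to 5.54 CPM after KCl, and a fold change of −0.62 (SE 0.44, FDR 0.375). For Slc35a4 all 13 neighbouring pairs of groups overlapped, as they did for Ifrd1.

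Levels can be set between genes only per length. In resting TurboID-PSD95 inputs, Atf4 led with 65.4 CPM per kb of CDS (SD 24.3, n = 3), before Ifrd1 (32.4), Ddit3 (29.1), Atf5 (22.7), Ppp1r15b (16.2), Ppp1r15a (7.75) and Slc35a4 (4.52). The Atf4 range, 37.4 to 81.7, overlapped those of Ifrd1 (up to 38.3) and Ddit3 (up to 37.7). The ranges of Ifrd1, Ddit3 and Atf5 overlapped one another, and that of Ppp1r15b lay within that of Atf5. In depolarized TurboID-PSD95 inputs Atf4 was at 226 CPM per kb (SD 62.6), Ddit3 was next with 72.0 (SD 10.0), and Ppp1r15a (29.5, SD 2.48) and Ppp1r15b (21.4, SD 5.40) had exchanged places, with ranges of 26.8 to 31.7 and 17.1 to 27.5 that overlapped.

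**Figure D3:**
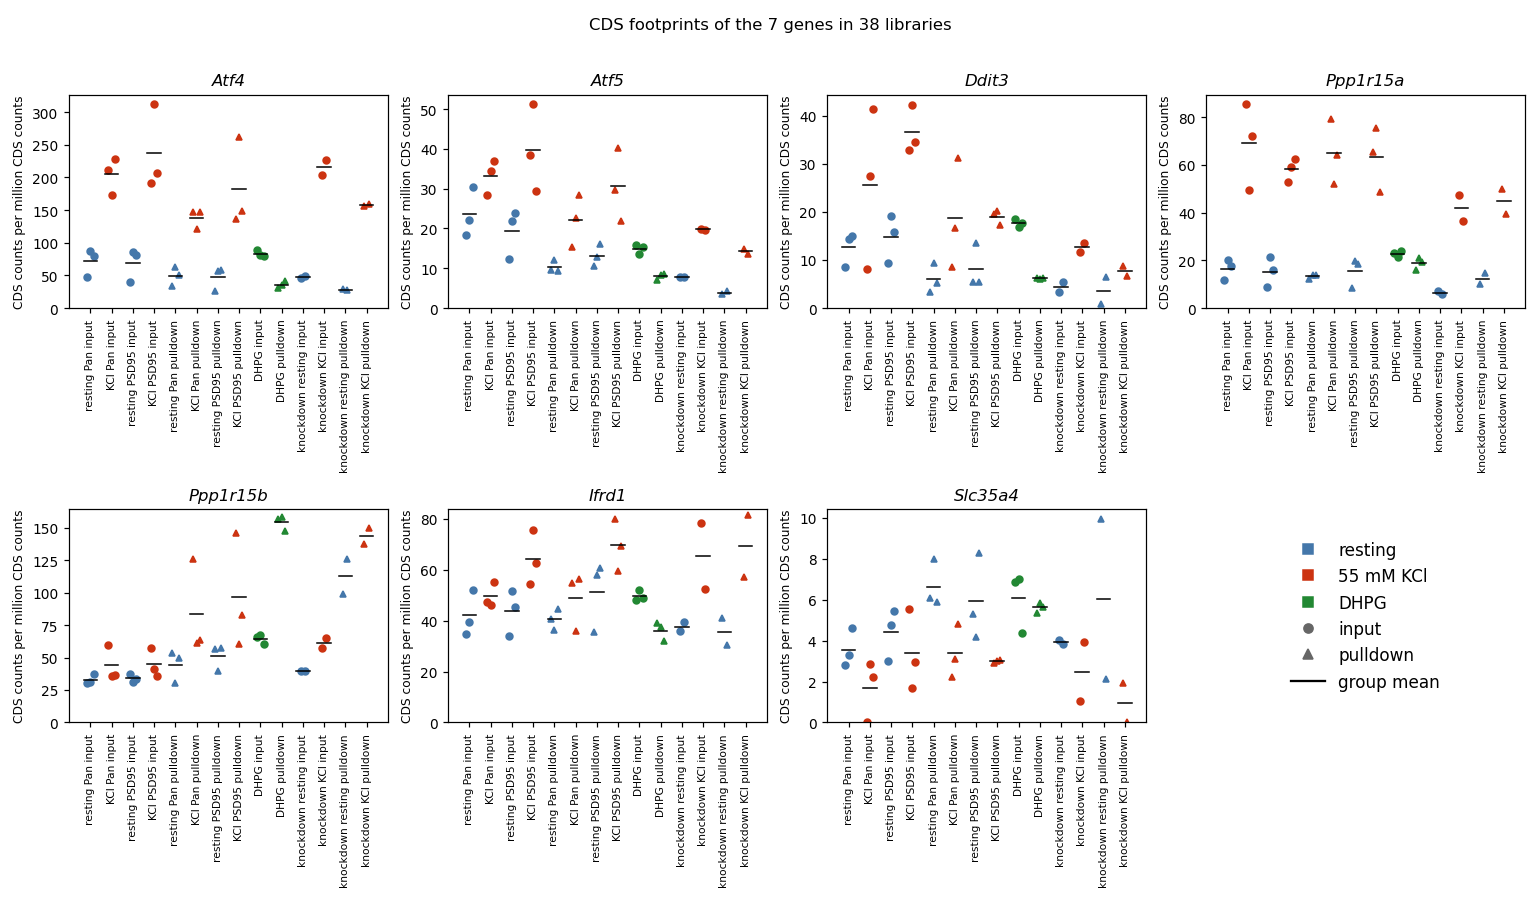
CDS footprints of the 7 genes in CPM, by group, with points for libraries and lines for group means. The 16 depolarized libraries lie above the other 22 for Atf4 (121 to 313 against 25.9 to 88.3) and for Ppp1r15a (36.6 to 85.5 against 5.98 to 24.0), and Ppp1r15b has its highest group mean in DHPG pulldowns (154).

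The rise was also present in ribosomes recovered through TurboID-PSD95. In these pulldowns Ppp1r15a rose by 2.06 (SE 0.35, edgeR FDR 0.000524), Atf4 by 1.97 (SE 0.36, FDR 0.00127) and Atf5 by 1.27 (SE 0.32, FDR 0.0165), so 3 of 7 passed, beside 6.58% of all genes. Ppp1r15a went from 8.25, 19.8 and 18.6 CPM at rest to 65.2, 75.5 and 48.6 CPM. Atf4 went from 25.9, 56.6 and 58.6 CPM to 136, 261 and 149 CPM. Atf5 went from 10.6, 12.7 and 16.1 CPM to 29.7, 40.1 and 21.8 CPM. None of the 3 genes overlapped between rest and KCl, which describes the same values that were tested. The share of all genes without such overlap is not given here. Ddit3 (1.21, SE 0.50, FDR 0.147), Ppp1r15b (0.95, SE 0.33, FDR 0.0809), Ifrd1 (0.46, SE 0.25, FDR 0.298) and Slc35a4 (−0.93, SE 0.63, FDR 0.415) did not pass. Without replicate 2 of the depolarized TurboID-PSD95 pulldowns, Atf5 was at 1.03 (FDR 0.0927) and no longer passed, and Ppp1r15b was at 1.22 and did (FDR 0.0375), as it did with DESeq2 (0.97, FDR 0.0487). Leaving out replicate 2 or replicate 3 of all groups put Atf4 at 1.84 and 2.27, with an FDR of 0.0516 in both cases, and put Atf5 at 1.04 (FDR 0.310) and 1.60 (FDR 0.0735). Without replicate 1 Atf5 was at 1.09 (FDR 0.0502), and it also lost the call when only these libraries were fitted (1.23, FDR 0.138) and with the first coding segment left out (1.43, FDR 0.140). Ppp1r15a passed in all 12 alternatives. With the replicate block 5 of 7 passed, beside 9.74% of all genes, now with Ddit3 (1.26, FDR 0.0400) and Ppp1r15b (0.89, FDR 0.0251).

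With Pan-TurboID, 4 of the 7 rose, beside 5.03% of all genes. They were Ppp1r15a by 2.35 (SE 0.34, edgeR FDR 7.05e-05), Ddit3 by 1.72 (SE 0.49, FDR 0.0395), Atf4 by 1.56 (SE 0.35, FDR 0.00845) and Atf5 by 1.17 (SE 0.31, FDR 0.0257). Atf4 had 33.1, 62.3 and 50.9 CPM at rest and 147, 121 and 147 CPM after KCl, which did not overlap. Ddit3 had 3.33, 9.35 and 5.26 CPM at rest and 8.49, 16.7 and 31.3 CPM after KCl, and replicate 1 of the depolarized libraries lay within the resting range. Without replicate 3 of all groups, Atf4 was at 1.60 (FDR 0.224). Without replicate 2 or 3 of all groups, Atf5 was at 1.30 (FDR 0.166) and 0.94 (FDR 0.395), and Ddit3 at 2.25 (FDR 0.111) and 1.14 (FDR 0.570). Both also lost the call when only these libraries were fitted (Atf5 1.16, FDR 0.0539, and Ddit3 1.71, FDR 0.0719) and with the first coding segment left out (1.56, FDR 0.124, and 1.08, FDR 0.260). Ppp1r15a (2.04 to 3.11) passed in all 12 alternatives. Ppp1r15b passed with the replicate block (0.94, FDR 0.0183), which made 5 of 7 beside 7.54% of all genes, with edgeR's likelihood ratio test (0.99, FDR 0.0498), with DESeq2 (1.02, FDR 0.0427) and without the library that stood apart (0.98, FDR 0.0497).

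**Figure D4:**
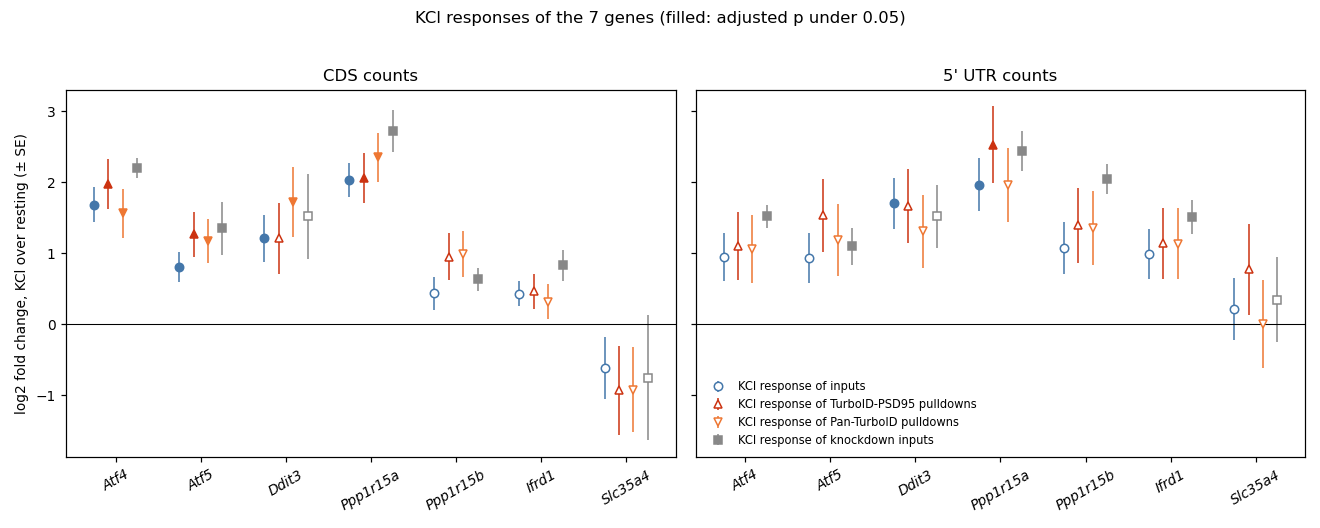
Log2 fold changes after KCl (± SE) in CDS counts (left) and 5′ UTR counts (right), for inputs, TurboID-PSD95 pulldowns, Pan-TurboID pulldowns and eIF4G2 knockdown inputs. Filled points have an adjusted p under 0.05. Atf4, Atf5 and Ppp1r15a are filled in all 4 CDS comparisons, and Slc35a4 in none.

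Setting TurboID-PSD95 pulldowns against the mean of the inputs gave the dendritic comparison. At rest none of the 7 genes passed by edgeR at an FDR of 0.05, beside 31.1% of all genes. Their log2 values were −0.69 for Atf5 (SE 0.28, FDR 0.0628), −0.68 for Ddit3, −0.55 for Atf4, −0.02 for Ppp1r15a, 0.29 for Ifrd1, 0.59 for Slc35a4 and 0.63 for Ppp1r15b (SE 0.28, FDR 0.0894), which passed without the library that stood apart (0.67, FDR 0.0471). With the replicate block 2 of 7 passed, beside 36% of all genes, which is no more than the background. They were Atf5 (−0.67, FDR 0.0402) and Ppp1r15b (0.61, FDR 0.0298). After depolarization Ppp1r15b was higher in the pulldown by 1.14 (SE 0.28, FDR 0.00807), with 146, 60.5 and 82.8 CPM in the pulldowns and 57.6, 41.3 and 35.8 CPM in the TurboID-PSD95 inputs, which did not overlap. It was the only one of the 7, beside 18% of all genes, which is no more than the background. The call was lost without replicate 3 (1.08, FDR 0.227) and with the first coding segment left out (0.61, FDR 0.550). The Pan-TurboID pulldowns after KCl held 126, 61.4 and 63.5 CPM of Ppp1r15b, in the range of the TurboID-PSD95 pulldowns. The change of the dendritic value with depolarization passed for none of the 7 and for 0% of all genes by edgeR, while 342 genes had an unadjusted p under 0.05.

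In the 5′ UTR, Ppp1r15a and Ddit3 passed in the inputs after KCl without the replicate block, and more of the 7 did with it, as given below. Ppp1r15a rose by 1.97 (SE 0.37, edgeR FDR 0.000582) and Ddit3 by 1.70 (SE 0.36, FDR 0.00393), so 2 of the 7 passed, beside 0.449% of 10032 genes. For Ppp1r15a the resting TurboID-PSD95 inputs held 24.1, 40.3 and 52.0 CPM of 5′ UTR counts and the depolarized ones 139, 145 and 146 CPM. For Ddit3 they held 12.1, 24.5 and 20.5 CPM against 88.2, 61.5 and 71.5 CPM. Neither gene overlapped between the conditions with this ligase. Without replicate 3 of all groups neither passed (Ppp1r15a 2.03, FDR 0.293, and Ddit3 1.61, FDR 0.9999).

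Atf4 (0.95, SE 0.34, FDR 0.437), Atf5 (0.93), Ifrd1 (0.98) and Ppp1r15b (1.08, SE 0.36, FDR 0.348) had 5′ UTR values of about the same size that did not pass, and Slc35a4 was at 0.21. With the replicate block, however, these calls changed and 6 of 7 passed, beside 1.43% of all genes, with Atf4 at 1.01 (FDR 0.00465), Atf5 at 0.94 (FDR 0.0218), Ifrd1 at 1.01 (FDR 0.0112) and Ppp1r15b at 1.15 (FDR 0.00283). The same 4 genes also passed when only the inputs were fitted (FDR 0.00127 to 0.00483) and with library sizes taken from 5′ UTR counts (FDR 4.02e-05 to 0.00442). The share of all genes called in these fits is not given here. Without the block, the median over all genes was 0.17. In TurboID-PSD95 pulldowns, Ppp1r15a passed (2.53, SE 0.54, FDR 0.00905), 1 of 7 beside 0.289% of all genes, and was at 2.00 (FDR 0.129) without the library that stood apart, at 2.56 (FDR 0.305) without replicate 2, at 2.43 (FDR 0.915) without replicate 3 of all groups and at 2.49 (FDR 0.710) when only these libraries were fitted. The other 6 were between 0.77 and 1.66, where the median over all genes was 0.65, and of these Atf5 passed without replicate 1 (1.59, FDR 0.0336). With the replicate block 4 of 7 passed, beside 2.16% of all genes, with Atf5 (1.48, FDR 0.0151), Ddit3 (1.68, FDR 0.0153) and Ppp1r15b (1.37, FDR 0.0347) added. None passed in Pan-TurboID pulldowns, beside 0.13% of all genes by edgeR and 429 genes with an unadjusted p under 0.05, and Ppp1r15a was at 1.96 there (FDR 0.177), passing without replicate 1 (2.10, FDR 0.00371), without the library that stood apart (1.96, FDR 0.0488) and with the replicate block (1.87, FDR 0.00106, beside 0.459% of all genes).

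The change of the 5′ UTR count relative to the CDS count was tested as an interaction of region and condition. None of the 7 passed in inputs, beside 0.359% of all genes, in TurboID-PSD95 pulldowns, beside 0.0498%, or in Pan-TurboID pulldowns, beside 0% (edgeR, with 530 genes at an unadjusted p under 0.05). Atf4 had the lowest value of the 7 in each of the 3 comparisons, −0.76 in inputs (SE 0.33, FDR 0.524), −0.92 in TurboID-PSD95 pulldowns (SE 0.48, FDR 0.470) and −0.60 in Pan-TurboID pulldowns (SE 0.47, FDR 0.968). Slc35a4 had the highest in inputs, 0.95 (SE 0.60, FDR 0.774), and in TurboID-PSD95 pulldowns, 1.75 (SE 0.85, FDR 0.441). The median over all genes was 0.20 in inputs, 0.58 in TurboID-PSD95 pulldowns and 0.24 in Pan-TurboID pulldowns. The share of Atf4 counts in the 5′ UTR was between 75.3% and 83.0% in the 6 resting inputs and between 62.5% and 73.8% in the 6 depolarized inputs, which did not overlap, and between 57.9% and 74.8% against 40.1% and 67.7% in the pulldowns, which did.

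Pulldowns held relatively fewer 5′ UTR counts than inputs over the whole transcriptome, with a median log2 change of the ratio of −1.59 at rest. At rest, 4 of the 7 were lower, beside 48.8% of all genes, a share near the background. Ppp1r15b was at −2.39 (SE 0.70, edgeR FDR 0.00833), Ifrd1 at −1.64 (SE 0.52, FDR 0.0122), Ppp1r15a at −1.44 (SE 0.53, FDR 0.0279) and Atf5 at −1.14 (SE 0.48, FDR 0.0487). Atf4 (−0.86, FDR 0.0804), Slc35a4 (−1.38, FDR 0.109) and Ddit3 (−0.31, FDR 0.619) did not pass. The values of Ppp1r15b and Ifrd1 lay below the transcriptome's median and those of the other 5 above it. After depolarization 2 of 7 passed, beside 25.9% of all genes, a share near the background. They were Ppp1r15b at −2.63 (SE 0.72, FDR 0.0148) and Ifrd1 at −1.59 (SE 0.53, FDR 0.0292). The difference between the conditions passed for none of the 7 and for 0% of genes by edgeR, with 313 genes at an unadjusted p under 0.05. The values stayed close to those above, but with fewer libraries per group the calls were lost without replicate 3. Without it in all groups, none of the 4 passed at rest (Ppp1r15b −2.27 with FDR 0.156, Ifrd1 −1.58 with 0.176, Ppp1r15a −1.27 with 0.260 and Atf5 −1.23 with 0.235), nor did Ppp1r15b (−2.40) or Ifrd1 (−1.69) after depolarization, both with FDR 0.348. Without replicate 1, Atf5 at rest was at −0.87 (FDR 0.141) and depolarized Ifrd1 at −0.95 (FDR 0.181), and without replicate 2, Atf5 at rest was at −1.31 (FDR 0.0982) and Ppp1r15a at −1.78 (FDR 0.0512). Atf5 at rest was also lost without a low-count filter (−1.14, FDR 0.111) and with limma (−1.15, FDR 0.0514), and depolarized Ppp1r15b with the first coding segment left out (−2.49, FDR 0.0555). Without the library that stood apart, Atf4 (−1.20, FDR 0.0313) and Ppp1r15a (−1.47, FDR 0.0453) also passed after depolarization. So did Atf4 (−1.40, FDR 0.0238) and Atf5 (−1.95, FDR 0.0298) with the first coding segment left out. Without 5′ UTR segments that abut the main ATG, Atf4 passed after depolarization (−1.22, FDR 0.0368) and Slc35a4 at rest (−3.57, FDR 0.0429). With the replicate block Atf4 passed at rest (−0.86, FDR 0.0426), 5 of 7 beside 56.5% of all genes, and Atf4 (−1.02, FDR 0.0239) and Atf5 (−1.02, FDR 0.0457) after depolarization, 4 of 7 beside 39.2%.

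Exon segments allowed a closer view of the overlapping uORFs. In Atf4, the last 92 nt before the main ATG form a segment of their own and lie inside the overlapping uORF, and the second coding segment of 827 nt lies wholly beyond it. In inputs, the second coding segment held 21.0 to 60.5 CPM at rest (mean 41.3, SD 15.9, n = 6) and 106 to 222 CPM after KCl (mean 142, SD 41.7, n = 6), a 3.43-fold difference. The segment in the overlapping uORF held 39.0 to 68.0 CPM at rest and 69.6 to 137 CPM after KCl, a 1.98-fold difference. Neither overlapped between the conditions. The log2 ratio of their densities per nt, uORF over CDS, was 3.62 at rest and 2.77 after KCl, a difference of −0.85 with a 2-sided exact permutation p of 0.0195. In pulldowns of both ligases the second coding segment was 4.41-fold higher after KCl (3.85-fold without the library that stood apart) and the uORF segment 2.19-fold higher. The uORF segment held 14.3 to 46.0 CPM at rest and 31.1 to 103.6 CPM after KCl, which overlapped. Its highest value, 103.6 CPM, was in the library that stood apart, and the next was 88.7 CPM. The ratio went from 3.09 to 2.01, a difference of −1.08 (exact permutation p = 0.00649, and −1.11 with p = 0.0130 without that library). Replicate 1 of the depolarized pulldowns was at 1.21 with Pan-TurboID and 1.23 with TurboID-PSD95, and the remaining ones were between 2.12 and 2.89. Leaving out the first or the second of these gave a ratio difference of −0.92 or −0.93. This quantity was chosen after values had been seen, 8 such tests were made, and the adjusted p was 0.0519 for Atf4 in inputs and in pulldowns, so neither passed. With labels permuted only within a replicate, the exact p was 0.00926 in inputs, the smallest that this permutation can give, and 0.0278 in pulldowns. Over 8 tests that smallest value adjusts to 0.0741 unless other tests reach it too, so a single gene could not pass. A ribosome on the first main codons also counts in the 92-nt segment.

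Atf5, whose overlapping uORF has a 116-nt segment and whose second coding segment has 674 nt, differed by 0.04 in inputs (exact permutation p = 0.924) and by −0.43 in pulldowns (p = 0.613) on the same log2 scale. Single libraries set the sign of both values. Leaving out each in turn gave −0.18 to 0.24 in inputs, and in pulldowns 0.03 without replicate 1 of the depolarized and 0.0098 without replicate 2 of the resting Pan-TurboID libraries, the latter with 5 CDS counts. Both of its segments were higher after KCl, the uORF segment 2.45-fold and the coding segment 2.36-fold in inputs. The density ratio of Atf5 was far above that of Atf4, 5.54 (SD 0.88, n = 6) in resting inputs on the log2 scale, and its second coding segment held 1.69 to 7.26 CPM.

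Ddit3 and Slc35a4 have uORFs that are counted as coding sequences of their own, and most 5′ UTR counts lay in them. The 105-nt uORF of Ddit3 held 67.2% of its summed 5′ UTR counts in inputs and 75.4% in pulldowns, and the 312-nt uORF of Slc35a4 held 78.3% and 83.4%. The Ddit3 uORF went from 7.68 to 18.5 CPM in resting inputs to between 26.2 and 57.1 CPM after KCl, 3.99-fold and without overlap, while the CDS was 2.27-fold higher. The log2 ratio of uORF over CDS density differed by 0.95 in inputs (exact permutation p = 0.0152, adjusted 0.0519) and by 0.14 in pulldowns (exact permutation p = 0.613), where it was −0.000258 without the library that stood apart. Replicate 1 of the depolarized Pan-TurboID inputs, with 17 CDS counts, was at 4.79 and the other 5 depolarized inputs were between 2.21 and 3.07, and without it the input difference was 0.60 (exact permutation p = 0.0303, not adjusted). For Slc35a4, the uORF count was above the CDS count in 17 of 19 inputs and 8 of 19 pulldowns. In inputs the Slc35a4 ratio differed by 0.80 (exact permutation p = 0.0866, not adjusted) without replicate 1 of the depolarized Pan-TurboID inputs, which had no CDS count there, so that its ratio was set by the pseudocount of 0.5. With that library the difference was 1.36. In pulldowns the ratio differed by 1.37 (exact permutation p = 0.0325, adjusted 0.0649, and 1.16 without the library that stood apart). Its CDS held 2.55 CPM after KCl and 3.99 CPM at rest in inputs, few counts for such a ratio. In inputs the ratio was thus lower after KCl for Atf4 and higher for Ddit3 and Slc35a4, no gene passed after adjustment, and the difference between genes was not tested.

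**Figure D5:**
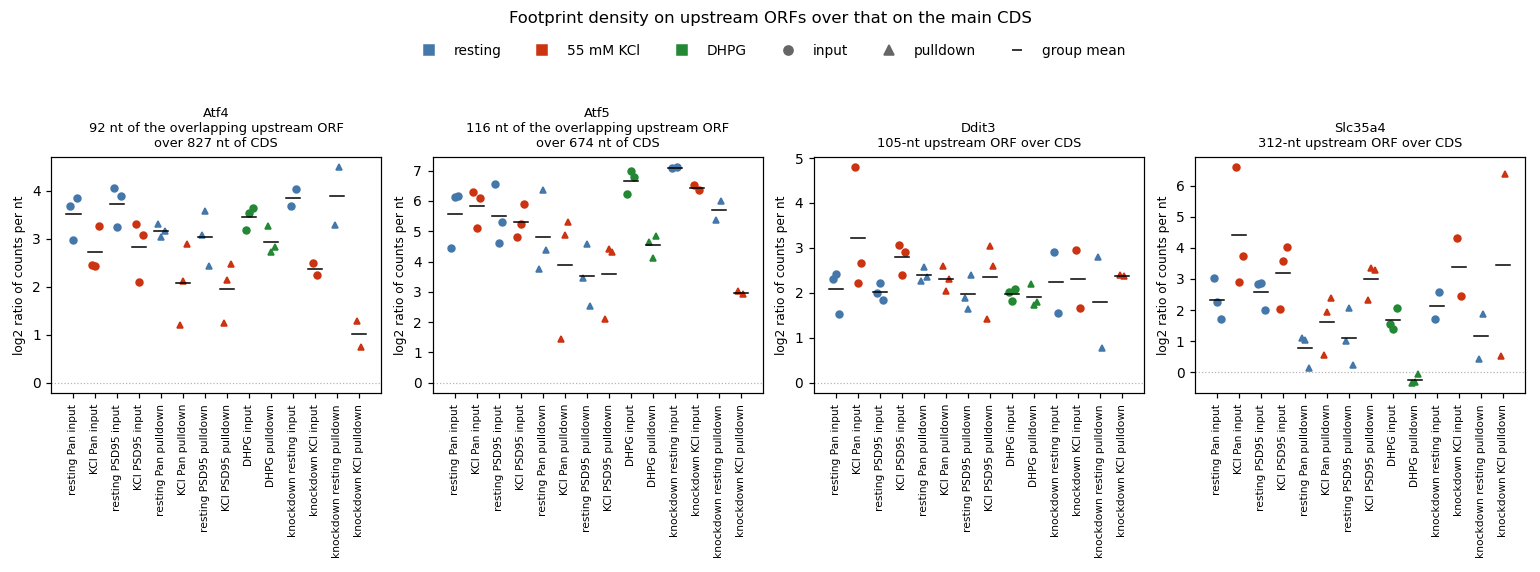
Log2 ratio of footprint density per nt, uORF over CDS, by group for Atf4, Atf5, Ddit3 and Slc35a4 (points are libraries, lines are means). The CDS is the second coding segment for Atf4 and Atf5. Atf4 is lower in depolarized than in resting inputs (2.77 against 3.62 on average), Ddit3 higher (3.01 against 2.05, and 2.65 without the highest library).

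After DHPG, Atf4 did not pass the test. DHPG inputs held 88.3, 81.8 and 79.2 CPM of Atf4, where resting TurboID-PSD95 inputs held 39.3, 85.8 and 80.9 CPM (0.39, SE 0.32, edgeR FDR 0.378). Ppp1r15a had 22.9, 21.3 and 24.0 CPM against 8.83, 21.2 and 15.9 CPM, with a log2 value of 0.71 (SE 0.32, FDR 0.106). Ppp1r15b was the one gene of the 7 that passed, beside 32.8% of 12787 genes, which is no more than the background. It had 65.9, 67.4 and 60.3 CPM against 37.3, 31.1 and 33.5 CPM (1.02, SE 0.13, FDR 2.75e-05), a call lost with the first coding segment left out (0.92, FDR 0.0957). In the pulldowns it had 157, 158 and 148 CPM against 56.7, 39.3 and 57.2 CPM at rest (1.85, SE 0.13, FDR 4.68e-08). It was again the 1 of 7 that passed, beside 47.7% of all genes, also no more than the background. Ifrd1 (−0.26, FDR 0.307) passed there without replicate 1 (−0.57, FDR 0.0238). For Ppp1r15b neither comparison overlapped, and both are comparisons between experiments that also differed in astrocyte markers. The part of that difference in these values was not tested.

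Within the DHPG experiment, pulldown and input came from the same samples. Its replicate inputs lay close together, with a chi-square per degree of freedom of 1.48 to 1.90. Replicates of resting TurboID-PSD95 inputs were at 8.61 to 17.5. The SEs and FDRs here measure a small spread, which may be technical. Ppp1r15b was higher in the pulldown by 1.47 (SE 0.075, edgeR FDR 4.99e-12), and Ddit3 (−1.30, SE 0.15, FDR 1.61e-07), Atf4 (−1.003, SE 0.097, FDR 2.32e-08), Atf5 (−0.67, SE 0.15, FDR 0.000457) and Ifrd1 (−0.26, SE 0.10, FDR 0.0226) were lower. Those are 5 of 7, beside 79.7% of 12257 genes, which is no more than the background. Atf4 had 31.3, 35.0 and 40.7 CPM in the pulldowns, below each of the inputs given above, and Ddit3 had 6.19, 6.04 and 6.33 CPM in pulldowns against 18.6, 16.8 and 17.7 CPM in inputs. The Ifrd1 call was lost without replicate 2 (−0.26, FDR 0.110), and with the first coding segment left out Atf5 turned direction (0.19, FDR 0.522).

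The 5′ UTR count relative to the CDS was lower in DHPG than in resting inputs for Ppp1r15a (−1.62, SE 0.38, edgeR FDR 0.0176), Ppp1r15b (−1.41, SE 0.41, FDR 0.0415) and Ifrd1 (−1.23, SE 0.37, FDR 0.0498), 3 of 7 beside 6.53% of 9536 genes, where the median over all genes was −0.44. The share of Ppp1r15a counts in the 5′ UTR was 45.5% (SD 2.44, n = 3) in DHPG inputs and 71.8% (SD 5.68, n = 3) in resting ones. For Ppp1r15b it was 39.8% (SD 1.84) against 63.6% (SD 9.86), and for Ifrd1 40.8% (SD 3.00) against 61.6% (SD 2.07). In pulldowns Ppp1r15b was lower by the same test (−2.01, SE 0.43, FDR 0.00931), 1 of 7 beside 7.73% of genes. Its share was 8.18% (SD 1.27) in DHPG pulldowns and 27.6% (SD 13.5) in resting ones. None of the 3 input calls was kept when log2 ratios per sample were tested with limma, or without replicate 3 of all groups (Ppp1r15a −1.39 with FDR 0.388, Ppp1r15b −1.29 with 0.473 and Ifrd1 −1.39 with 0.367). Without replicate 2, Ppp1r15b was at −1.12 (FDR 0.171) and Ifrd1 at −1.16 (FDR 0.159) in inputs, and Ppp1r15b at −1.37 (FDR 0.0915) in pulldowns. With the first coding segment left out, Ppp1r15a was at −1.87 (FDR 0.0575) and Ppp1r15b at −1.36 (FDR 0.181) in inputs, and Ifrd1 was at −1.23 (FDR 0.0506) with the transcript of the highest count. Without replicate 1 Ifrd1 was at −1.13 (FDR 0.106), and without replicate 3 Ppp1r15b was at −2.15 (FDR 0.133) in pulldowns.

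Atf4 also rose with KCl in neurons with knockdown of eIF4G2. Knockdown inputs held 45.6 and 48.6 CPM of Atf4 at rest and 204 and 227 CPM after KCl (2.20, SE 0.14, edgeR FDR 1.04e-11), and knockdown pulldowns held 29.4 and 27.3 CPM at rest and 156.2 and 159.8 CPM after KCl (2.47, SE 0.16, FDR 1.48e-11). Replicates of knockdown inputs were at a chi-square per degree of freedom of 2.81 at rest and 3.07 after KCl. Those of resting TurboID-PSD95 inputs were at 8.61 to 17.5. The SEs and FDRs within the knockdown measure a small spread, which may be technical. In the inputs, Ppp1r15a rose by 2.72 (SE 0.29, FDR 1.31e-07), Atf5 by 1.35 (SE 0.38, FDR 0.0118), Ifrd1 by 0.83 (SE 0.22, FDR 0.00780) and Ppp1r15b by 0.63 (SE 0.17, FDR 0.00781), so 5 of 7 passed, beside 19.3% of 12223 genes. Atf5 (1.92, FDR 0.0885) and Ppp1r15b (0.73, FDR 0.627) lost the call with the first coding segment left out. Marker sums moved with the same comparison, from between 7763 and 7988 to between 5886 and 6061 CPM for neurons, from between 489 and 504 to between 652 and 670 CPM for astrocytes and from between 9.44 and 10.4 to between 11.7 and 20.1 CPM for microglia, and their part in it was not tested. In the pulldowns 4 of 7 passed, beside 22.2% of genes, with Atf5 at 1.90 (SE 0.45, FDR 0.00310), Ppp1r15a at 1.92 (SE 0.30, FDR 2.84e-05) and Ifrd1 at 0.93 (SE 0.23, FDR 0.00478) beside Atf4. Slc35a4, with CDS counts of 5 and 0 after KCl, was at −2.59 (SE 1.03, FDR 0.0721). It passed without a low-count filter (−2.60, FDR 0.0337) and with edgeR's likelihood ratio test (−2.58, FDR 0.0166). There too marker sums moved, from between 6022 and 6137 to between 4220 and 4310 CPM for neurons, from between 417 and 523 to between 579 and 793 CPM for astrocytes and from between 18.1 and 22.2 to between 9.87 and 13.7 CPM for oligodendrocytes, and their part was not tested. The difference between the KCl responses with and without knockdown passed for none of the 7 (edgeR FDR 1 for each), beside 0.00759% of 13180 genes and 367 genes with an unadjusted p under 0.05. Its size was 0.41 for Atf4 (SE 0.48) and 0.77 for Ppp1r15a (SE 0.52), so with these errors a difference of this size could not have been detected.

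At rest, knockdown inputs were lower than inputs without knockdown for Atf5, with 7.89 and 7.76 CPM against 12.2, 22.0 and 23.9 CPM (−1.27, SE 0.36, edgeR FDR 0.0441), 1 of 7 beside 3.89% of 13180 genes. Ddit3 (3.25 and 5.47 CPM, −1.71, SE 0.52, FDR 0.0638) and Ppp1r15a (6.96 and 5.98 CPM, −1.20, SE 0.39, FDR 0.0843) lay below all of their comparators without passing. Atf4 was at −0.52 (SE 0.35, FDR 0.487). The Atf5 call was lost without replicate 1, 2 or 3 of all groups (−1.54, −1.12 and −1.09, with FDR 0.194, 0.723 and 0.177) and without the first coding segment (−1.94, FDR 0.107), and Ddit3 passed without the library that stood apart (−1.71, FDR 0.0378). Microglial markers, which summed to 9.44 and 10.4 CPM in these libraries and to between 1.30 and 3.44 CPM in resting TurboID-PSD95 inputs, moved with the same comparison. So did oligodendrocyte markers, with 18.4 and 19.0 CPM against between 4.94 and 13.3 CPM in resting TurboID-PSD95 inputs, and neuronal markers, with 7763 and 7988 CPM against between 6752 and 7415 CPM. Their part in it was not tested.

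In knockdown inputs the 5′ UTRs of 5 of the 7 genes rose with KCl, beside 3.4% of 7949 genes. They were Ppp1r15a by 2.44 (SE 0.28, edgeR FDR 5.16e-05), Ppp1r15b by 2.05 (SE 0.21, FDR 1.30e-05), Atf4 by 1.52 (SE 0.17, FDR 2.60e-05), Ifrd1 by 1.51 (SE 0.23, FDR 0.00142) and Atf5 by 1.10 (SE 0.26, FDR 0.0270), against a median of 0.50 over all genes. Atf5 lost the call with library sizes taken from 5′ UTR counts (0.60, FDR 0.787) and without 5′ UTR segments that abut the main ATG (0.79, FDR 0.463). Ppp1r15b had 45.8 and 44.4 CPM of 5′ UTR counts at rest and 172 and 198 CPM after KCl, a larger step than in its CDS. Its ratio of 5′ UTR to CDS was higher after KCl by 1.41 (SE 0.32, FDR 0.0340), where the median over all genes was 0.54. Ppp1r15b was the 1 of 7 that passed, beside 2.43% of genes. That call was lost with the replicate block (1.41, FDR 0.0637, with 0.994% of genes called), with limma on log2 ratios (1.41, FDR 0.430) and with the first coding segment left out (1.48, FDR 0.389). The change of the ratio response with knockdown passed for none of the 7 and for 0% of genes by edgeR, with 42 genes at an unadjusted p under 0.05. In the exon-segment view, with 2 libraries a group and no test, the Atf4 ratio of uORF over second coding segment went from 3.85 to 2.37 in knockdown inputs and from 3.89 to 1.01 in knockdown pulldowns, and the second coding segment was 5.55-fold and 9.76-fold higher. The Atf4 5′ UTR share in depolarized knockdown pulldowns, 37.6% (SD 1.49, n = 2), was the lowest of its 14 groups, against 67.7% (SD 3.02) in resting knockdown pulldowns.

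Genes listed as targets of ATF4 and CHOP moved with KCl as well, in a list chosen with earlier results of these data known. Whether these factors acted on them was not tested. Of 23 target genes of ATF4 and CHOP, 12 rose in the inputs and none fell, beside the 15.4% of all genes called there in either direction, with a median log2 fold change of 0.79 against −0.01 over all genes. They included Psph, an enzyme of serine synthesis (1.40, SE 0.20, edgeR FDR 2.19e-05), the stress-induced Sesn2 (1.49, FDR 2.92e-05), the transcription factor gene Cebpb (1.48, FDR 6.95e-05) and Atf3 (3.21, SE 0.56, FDR 0.000578), which is also an immediate early gene. Asns (0.47, FDR 0.124) and Phgdh (0.37, FDR 0.220) were among the targets that did not pass. In TurboID-PSD95 pulldowns 6 of the 23 rose (median 0.80) and in Pan-TurboID pulldowns 8 (median 0.91), and none fell, beside 6.58% and 5.03% of all genes called. Of the 12 eIF2 kinase, eIF2 and eIF2B genes, Eif2ak3, the gene of the endoplasmic reticulum kinase PERK, was the one that passed in inputs (1.17, SE 0.17, FDR 1.42e-05), and it also rose in TurboID-PSD95 (1.06) and Pan-TurboID pulldowns (1.09). A count of 1 of 12 is no more than the background. Of the 15 genes of the other branches of the endoplasmic reticulum stress response, ATF6 and IRE1, 4 rose in the inputs, namely Herpud1 (1.43), Hspa5, the chaperone BiP (0.91), Dnajb9 (0.99) and Atf6 (0.64). Of 11 factors of re-initiation and start-codon selection, none rose and 2 fell in inputs, Eif2d (−1.47, FDR 0.000228) and Eif5b (−0.66, FDR 0.0497), a share near the background. All 8 immediate early genes rose (median 3.53), among them Egr2 (4.57) and Arc (3.48).

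Against resting inputs, 13 of 22 targets were higher and 1 lower after DHPG, beside the 32.8% of all genes called in either direction (median 0.58 against −0.02 over all genes) and the astrocyte and neuronal markers, which summed to between 80.8 and 85.4 against between 287 and 726 CPM and to between 7969 and 8105 against between 6752 and 7415 CPM. The part of these markers was not tested. The targets were led by Ddit4 (1.47, edgeR FDR 1.21e-06), Asns, asparagine synthetase (1.12, FDR 4.66e-06), and Psph (1.10, FDR 0.000188), while Phgdh, another enzyme of serine synthesis that is abundant in astrocytes, was lower (−1.35, FDR 0.000452). Of the immediate early genes Arc was higher (1.30) and 6 of 8 were lower, such as Npas4 (−2.81), Fos (−2.98) and Nr4a1 (−3.74). In knockdown inputs 11 of 21 targets rose with KCl and in knockdown pulldowns 16 of 21, with none lower, beside 19.3% and 22.2% of all genes called and beside the fall of neuronal and rise of astrocyte marker sums given above for both, whose part was not tested. Against resting inputs without knockdown, 1 of 22 targets, Cebpb, was lower (−1.43, FDR 0.00895), beside 3.89% of all genes called, a share near the background.

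Across the 24 libraries of the KCl experiment, the CDS level of Atf4 was most like those of Fos (Pearson r = 0.952) and Fosb (0.941), and that of Ppp1r15a most like those of Herpud1 (0.963) and Egr2 (0.962), among 7777 genes. For Atf5 they were 2410131K14Rik (0.919) and Lmna (0.915), for Ddit3 Itpkc (0.929) and Opa3 (0.924), and for Ppp1r15b Ankrd28 (0.923) and Atp6ap2 (0.920). Ifrd1 had no gene above 0.776 (Nr4a2). Slc35a4 was nearest to Scrib (0.897) and Nrg3 (0.876). Between the 7, Atf4 went with Ppp1r15a (0.936) and Atf5 (0.877) and against Slc35a4 (−0.535). These values describe log2 CPM over libraries that share cultures and fall into resting and depolarized groups, so they hold the KCl response together with any other variation between libraries.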

How the data were processed

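Footprints were counted in 38 libraries, grouped by GEO's labels. The authors trimmed reads with Rfastp, separated libraries with fastq-multx, cut off a 6-nt molecular identifier, aligned to mm10 with Rsubread and counted the 5′ ends of footprints of 25 to 100 nt per exon segment with plastid, with no offset, in 114 files of CDS, 5′ UTR and 3′ UTR segments. The deposited counts are whole numbers, and the deposited RPKM values were used only to check them. File names carry marks for removed ribosomal RNA and duplicates. The study's reporting summary gives versions for some of these tools, such as Rsubread, but not for all. Strand use, multiple alignments and the way duplicates were found are not given in the sources used here. The labels of DHPG inputs and knockdown libraries name the cytosol in one field and PSD95-TurboID in another, which was used. No control siRNA was analysed here. Genes that overlap others may share counts.

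The longest transcript per gene was used, with 66750 of 67238 coding transcripts matched to a symbol. Counts were tested with edgeR 4.0.16 (R 4.3.3; quasi-likelihood test with robust estimation, TMM scaling, filterByExpr, Benjamini-Hochberg adjustment over all genes tested, FDR 0.05), 5′ UTR counts with the library sizes of the CDS, and 5′ UTR against CDS as an interaction with a block per library. DESeq2 1.42.0, edgeR's likelihood ratio test, limma 3.58.1 on log2 ratios (pseudocount 0.5), other transcripts, segments, library sizes and filters, and left-out replicates were alternatives. CPM values use CDS totals without TMM. Python 3.11.15 with scipy 1.17.1 gave 2-sided exact permutation tests and 95% Wilson intervals. Fits were tested on simulated data. Labels do not say that replicates came from separate litters, so p-values measure the spread between these samples, which may be technical. The study's methods say that resting and activated samples of a biological replicate were handled together, and each sample gave an input and a pulldown, so replicate numbers pair libraries within an experiment; same-numbered libraries deviated together in 47 of 84 pairs of the KCl experiment (correlation over 0.1; median 0.13, against −0.11 for other pairs), 0 of 3 in the DHPG and 0 of 12 in the knockdown experiment. No 2 libraries were identical, and the lowest chi-square per degree of freedom between replicates was 1.48, in DHPG inputs. It was 2.81 in resting and 3.07 in depolarized knockdown inputs, and 8.61 to 17.5 in resting TurboID-PSD95 inputs.

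The 7 genes were tested in every comparison, and a member without a printed value in one did not pass there by the edgeR quasi-likelihood test without a block. Of each pathway list, up to 4 genes with the smallest p among those that passed are named. Per gene, the 2 with the highest correlation over 24 libraries at a mean log2 CPM of at least 4 are named. The members and lists were chosen with earlier results of these data known.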

Additional observations from a re-analysis of the deposited data

Results flagged for a closer look

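Counts in the 3′ UTRs of the same transcripts entered no comparison. Summed over the 38 libraries they were 154 for Ppp1r15b, 111 for Ddit3, 78 for Atf5, 30 for Atf4, 15 for Slc35a4 and 4 for Ifrd1, each above the 3 counts that a count of 0 allows, while Ppp1r15a had 0.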

How the results depend on the processing

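Of the 279 counts of members that passed, recomputed under alternatives, 212 stayed within 1.5 times the count given above. Under the alternatives, shares of all genes called are given only for the replicate block within an experiment. The other counts have no background beside them. Of 1858 fold changes of single members, 1720 kept their side of the threshold, 70 lost the call, 64 gained one and 4 reversed. Direction was compared only where a value passed in the main fit or in the alternative. The causes were not tested. Atf4 and Ppp1r15a kept their CDS rise in inputs in all 12 alternatives (1.42 to 1.89 and 1.66 to 2.54).

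With the replicate number as a block, the members that passed went from 3 to 5 (CDS, TurboID-PSD95 pulldowns) and 0 to 2 (resting dendritic), from 2 to 6, 1 to 4 and 0 to 1 in 5′ UTRs (inputs, TurboID-PSD95 and Pan-TurboID pulldowns), and, for ratios, from 2 to 4 (depolarized dendritic) and 1 to 0 (knockdown inputs). Beside the calls given with these results, the block changed no other call within an experiment. Numbers of different experiments pair nothing, and there the block gave 3 in place of 1 (DHPG against resting inputs, and knockdown against none) and 2 in place of 1 (DHPG against resting pulldowns).

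Knockdown against none went from 1 to 3 without a low-count filter, with the likelihood ratio test and with DESeq2. DESeq2 also gave 2 in place of 1 and 1 in place of 0 for 5′ UTRs of TurboID-PSD95 and Pan-TurboID pulldowns. With library sizes of the 5′ UTR counts, 6 in place of 2 passed in inputs and 2 in place of 0 in Pan-TurboID pulldowns. The transcript with the highest count, whose CDS is the annotated uORF for Ddit3 and Slc35a4, gave 2 in place of 1 for DHPG pulldowns and 1 in place of 2 for 5′ UTRs of inputs. Fits on the libraries of a comparison alone gave 2 in place of 4 (CDS, Pan-TurboID pulldowns), and 6 in place of 2 and 0 in place of 1 for 5′ UTRs of inputs and TurboID-PSD95 pulldowns. limma gave 0 in place of 3 and 1 for ratios of DHPG and knockdown inputs. Without 5′ UTR segments that abut the main ATG, which leaves 4 members (3 for DHPG), 5′ UTR counts were 1 in place of 2, 0 of 1 and 1 of 5 (inputs, TurboID-PSD95 pulldowns, knockdown inputs) and ratio counts 2 in place of 4, 1 of 2, 1 of 3, 0 of 1 and 0 of 1 (resting and depolarized dendritic, DHPG inputs and pulldowns, knockdown inputs). Without the first coding segment, which drops Slc35a4, CDS counts were 2 in place of 4 (Pan-TurboID pulldowns), 0 of 1 (depolarized dendritic, DHPG inputs, knockdown against none) and 3 of 5 (knockdown inputs), and ratio counts 1 in place of 3 and 0 of 1 (DHPG and knockdown inputs).

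Leaving out replicates gave 2 to 4 for CDS in inputs, 1 to 3 in TurboID-PSD95 and 1 to 5 in Pan-TurboID pulldowns, 0 to 1 in both dendritic comparisons, 1 to 2 in DHPG pulldowns and 0 to 2 for knockdown against none. For 5′ UTRs it gave 0 to 2 in inputs and TurboID-PSD95 pulldowns and 0 to 1 in Pan-TurboID pulldowns, and for ratios 0 to 4 in both dendritic comparisons, 0 to 2 in DHPG inputs and 0 to 1 in DHPG pulldowns. Fits within the knockdown without a replicate have no residual degrees of freedom and were not made.

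The reversed values were Atf5 in DHPG pulldowns over inputs without the first coding segment (0.19, FDR 0.522), Slc35a4 with the highest-count transcript in DHPG pulldowns over inputs (−1.82, FDR 3.81e-06) and against resting pulldowns (−1.22, FDR 0.0178), and the Atf5 ratio in DHPG against resting inputs without abutting segments (−2.43, FDR 0.00631). Slc35a4, with 0 to 86 CDS counts a library, limits every statement on it.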
